A study of Mus musculus with 9 samples.

Results

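The genes described here are 9 genes of the oligodendrocyte precursor, *Olig1*, *Olig2*, *Sox10*, *Sox8*, *Nkx2-2*, *Pdgfra*, *Egfr*, *Cspg4* and *Lhfpl3*, taken by symbol from a table of 14670 genes measured in embryonic mouse cortex. The table gave values for 7 of the 9, and *Nkx2-2* and *Lhfpl3* were not analysed here. The question was how the mRNA of these genes differed between control cortex and cortex of *Fzd3* or *Celsr3* mutants, in a study that counted Olig2-positive cells in sections of the same mutants. RNA from microdissected cerebral cortex at embryonic day (E) 16.5 was sequenced in 9 libraries, 3 of each genotype. The labels give the genotypes as Control +/+, Fzd3 -/- mutant and Celsr3 -/- mutant. The methods describe a mixed C57Bl/6 and CD1 background for the mutants and controls that were heterozygous or wild-type littermates, so the sources differ on the control genotype. Both mutations were carried by the whole animal, not by 1 cell type, and the labels name Trizol where the methods name an RNeasy kit for cortex RNA. The methods give cortical tissue of 3 per genotype for sequencing and at least 3 animals for animal experiments in general, and p values measure the spread between these libraries. All 13 genes listed for excitatory neurons of the cortex were measured, led by *Neurod6*.

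Oligodendrocyte precursors are dividing glial cells that later make the myelin around axons. In the forebrain they arise in waves, first from ventral progenitors that send cells into the cortex and later from the cortex itself. *Olig2* and *Olig1* encode neighbouring basic helix-loop-helix factors that set up the lineage, *Sox10* and *Sox8* encode related HMG-box factors of its maintenance and maturation, and *Pdgfra* encodes the receptor through which platelet-derived growth factor keeps precursors dividing. None of these genes is read in precursors alone. *Olig2* and *Egfr* are also expressed in progenitors, *Pdgfra* in meningeal fibroblasts and *Cspg4* in pericytes, and in tissue RNA fewer cells of a type and less RNA per cell cannot be told apart.

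The unit was CPM, reads scaled to the size of the library. Each library's values were multiples of 1 smallest step, taken here as 1 sequencing read. On that reading the libraries held between 39857305 and 69600589 reads, and 3 reads equalled 0.0427 to 0.0752 CPM. The members lay above that level in all 9 libraries, from 41 reads for *Sox10* in Celsr3 mutant 2 to 1400 for *Pdgfra* in Fzd3 mutant 1. Differences were tested with limma on log2(CPM + 0.5), a scale that understates the change of genes at low levels, and p values were adjusted over all 14670 genes with a threshold of 0.05. *Celsr3* itself was at 196, 243 and 214 CPM in controls 1 to 3 and at 122, 139 and 118 CPM in Celsr3 mutants 1, 2 and 4, with no overlap (log2 fold change -0.78, limma adjusted p = 0.0018, and 0.00136 to 0.177 over all alternatives, missing the threshold with ordinary variances and, at 0.0699, with the replicate number as a block). *Fzd3* was at 58.0, 67.7 and 46.9 CPM in controls and at 46.5, 39.8 and 59.6 CPM in the libraries labelled Fzd3 mutant, so the groups overlapped (log2 fold change -0.24, limma adjusted p = 0.24). Without Fzd3 mutant 3, the highest *Fzd3* value of its genotype, the difference was -0.40 (adjusted p = 0.0457, range over all alternatives 0.0457 to 0.633). With 1 library left out the difference ran from -0.40 to -0.11. The deleted part of *Fzd3* is exon 3, and a value for the whole gene does not check it.

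2 libraries stood apart from the others of their genotype. Celsr3 mutant 4 was the highest of its genotype for 11 of 12 genes of meningeal and perivascular fibroblasts, with *Col3a1* at 87.6 CPM against 2.61 to 6.86 CPM in the other 8 libraries and *Dcn* at 13.0 against 0.854 to 2.89 CPM. It was also the highest for 9 of 9 endothelial and blood genes and 8 of 12 pericyte genes and the lowest for 9 of 12 ventral and GABA lineage genes, where over all genes it was the highest for 33.5% and the lowest for 35.5%. Fzd3 mutant 3 was the lowest of its genotype for 7 of 7 members, as it was for 37.3% of all genes. Values of the members that moved by over 1.5 times or changed a call without either library are given with and without it.

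The promoters of *Olig2*, *Egfr* and *Pdgfra* are shown because each of these genes was higher in Fzd3 mutants than in controls. RefSeq (GRCm38.p6) held a promoter for 5 of the 7 members, and each window runs up to 250 bases before the start, ending before the first annotated exon, on the strand of the gene. Capitals mark the E-box CANNTG, which basic helix-loop-helix factors bind, and CCAAT or its reverse ATTGG. The *Olig2* window lies at chr16:91225300-91225456, the *Egfr* window at chr11:16751953-16752202 and the *Pdgfra* window at chr5:75152001-75152250, all on the plus strand and upstream of the transcribed region.
Olig2: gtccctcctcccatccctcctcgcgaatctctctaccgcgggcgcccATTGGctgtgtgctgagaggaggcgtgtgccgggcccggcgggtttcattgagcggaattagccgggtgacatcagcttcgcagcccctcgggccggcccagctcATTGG
Egfr: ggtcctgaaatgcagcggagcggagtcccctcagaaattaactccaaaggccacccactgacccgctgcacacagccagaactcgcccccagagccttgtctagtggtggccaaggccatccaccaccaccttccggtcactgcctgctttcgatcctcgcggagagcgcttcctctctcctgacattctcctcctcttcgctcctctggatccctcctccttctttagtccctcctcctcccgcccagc
Pdgfra: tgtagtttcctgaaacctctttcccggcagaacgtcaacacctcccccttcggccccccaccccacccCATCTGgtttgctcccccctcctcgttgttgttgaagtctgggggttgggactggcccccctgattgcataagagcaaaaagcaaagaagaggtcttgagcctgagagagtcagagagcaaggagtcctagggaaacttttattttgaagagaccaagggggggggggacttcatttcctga
The *Pdgfra* window held 1 CANNTG, found in 66.2% of all promoter windows of that length, and the *Egfr* window of the same length and the shorter *Olig2* window (50.8% of windows with the motif) held 0. The *Olig2* window held 2 CCAAT motifs, and 3.87% of windows of its length held at least as many. The *Egfr* and *Pdgfra* windows held 0, against 33.8% of windows of their length with the motif. CCAAT was added to the search after these sequences had been read. TGGGAA, the core of sites bound by the Notch partner Rbpj, and ACAAAG, a form of Sox site, were at 0 in these 3 windows on both strands, and 14.5% and 10.8% of all windows of the *Olig2* length and 21.6% and 16.5% of those of the other length held them. No CANNTG overlapped a CCAAT. GC content was 66.9% for *Olig2*, 60.8% for *Egfr* and 54.4% for *Pdgfra*, against medians of 51.0% and 52.4% over all windows of 157 and 250 bases.

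Of the 4 transcription factors, *Olig1* and *Olig2* were higher in Fzd3 mutants than in controls, and *Sox10* and *Sox8* did not pass the test. *Olig2* (XLOC_012290, chr16:91225457-91228677) was at 3.66, 3.88 and 5.34 CPM in controls, at 11.6, 11.4 and 5.23 CPM in Fzd3 mutants and at 4.83, 3.28 and 2.15 CPM in Celsr3 mutants. Fzd3 mutants 1 and 2 lay above all other libraries, whereas Fzd3 mutant 3 lay below control 3, so these groups overlapped. The difference between Fzd3 mutants and controls was 0.98 on the log2 scale (95% confidence interval 0.32 to 1.65, limma adjusted p = 0.0309, 2 of 3 libraries above every control), with p = 0.2 in an exact two-sided permutation test of 3 against 3 libraries, where the smallest possible is 0.1. Its limma adjusted p missed the threshold without control 1 (0.0973), control 2 (0.0869), Fzd3 mutant 1 (0.122) or Fzd3 mutant 2 (0.116) and ranged from 0.00326 to 0.125 over all alternatives. Without Fzd3 mutant 3 the difference was 1.34. In Celsr3 mutants the difference from controls was -0.33 (interval -0.998 to 0.34, limma adjusted p = 1.00), the exact permutation p was 0.4 and the libraries overlapped. Leaving out Celsr3 mutant 4, the lowest of the 9, brought that difference to -0.078, and it was -0.18 without control 3 and -0.58 without Celsr3 mutant 1.

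*Olig1* (XLOC_012291, chr16:91269772-91271933) starts about 41100 bp beyond the end of *Olig2* on the same strand. It was at 4.47, 4.55 and 6.85 CPM in controls, 14.8, 12.6 and 8.29 CPM in Fzd3 mutants and 5.66, 4.63 and 3.80 CPM in Celsr3 mutants. All 3 Fzd3 mutants lay above the controls, and the Celsr3 mutants overlapped with them. *Olig1* differed by 1.08 between Fzd3 mutants and controls (interval 0.61 to 1.56, limma adjusted p = 0.00375) and by -0.15 between Celsr3 mutants and controls (interval -0.62 to 0.33, adjusted p = 1.00). The second value was 0.037 without control 3 and -0.018 without Celsr3 mutant 4. *Olig1* and *Olig2* differed in parallel between libraries, and the ratio of *Olig1* to *Olig2* CPM ran from 1.10 in Fzd3 mutant 2 to 1.77 in Celsr3 mutant 4. A noncoding gene on the opposite strand, Gm15966, overlaps 157 bp of *Olig1* by gene span, introns included. Overlap of exons was not checked. Since use of strand is not given, reads from any shared exon bases cannot be told apart.

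*Sox10* (XLOC_011538) was the least abundant member. It was at 0.944, 1.35 and 1.45 CPM in controls, 2.02, 1.84 and 0.878 CPM in Fzd3 mutants and 1.20, 0.744 and 0.954 CPM in Celsr3 mutants, and Fzd3 mutant 3 lay below all controls while the other 2 Fzd3 mutants lay above them. Its log2 differences from control were 0.21 in Fzd3 mutants (interval -0.31 to 0.73, limma adjusted p = 0.538) and -0.25 in Celsr3 mutants (interval -0.77 to 0.27, adjusted p = 1.00), intervals wide enough to hold changes in both directions. Without Fzd3 mutant 3 the first difference was 0.48 (adjusted p = 0.0941), and with 1 library left out it ran from 0.049 to 0.48, with adjusted p from 0.0941 to 0.916 over all alternatives. *Sox8* (XLOC_013897), by contrast, was nearly level. It was at 10.1, 11.4 and 9.36 CPM in controls, 9.96, 9.74 and 7.75 CPM in Fzd3 mutants and 8.70, 9.29 and 9.98 CPM in Celsr3 mutants, and the genotypes overlapped. The differences were -0.16 (interval -0.41 to 0.09) and -0.13 (interval -0.38 to 0.12), and the first was -0.054 without Fzd3 mutant 3. An antisense gene in the table, 2810468N07Rik, overlaps 329 bp of *Sox8* by gene span, introns included. Overlap of exons was not checked, and without knowledge of strand, reads from any shared exon bases cannot be told apart.

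**Figure D1:**
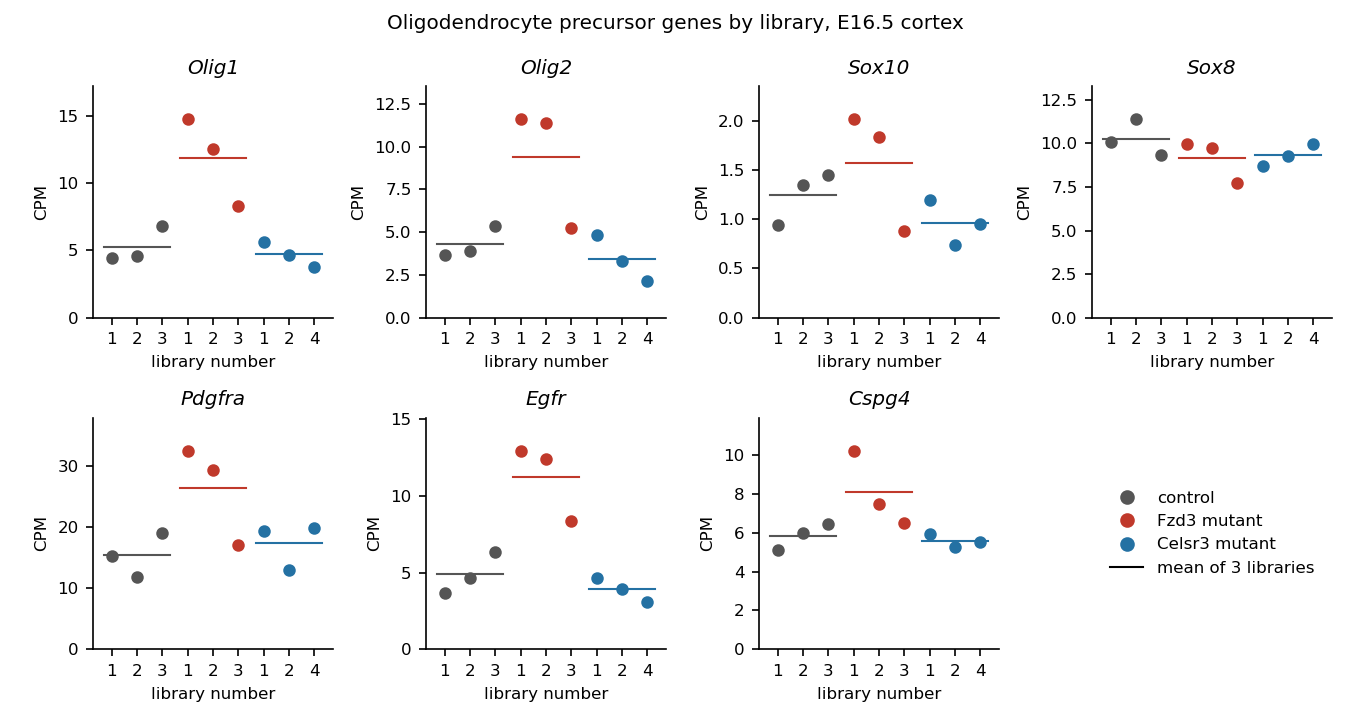
CPM (vertical axes, from 0) of the 7 members in each library, with a point per library, numbered as in the labels, and a line at the mean of 3 libraries. Fzd3 mutants 1 and 2 are the highest of the 9 libraries for every member but *Sox8*, and Fzd3 mutant 3 is the lowest of its genotype in each panel.

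Of the 3 receptors and surface proteins, *Egfr* and *Pdgfra* were higher in Fzd3 mutants than in controls and *Cspg4* came just short of the threshold. *Egfr* (XLOC_003575, chr11:16752203-16918158) encodes the receptor for epidermal growth factor, carried by late progenitors and by glial precursors. It was at 3.66, 4.63 and 6.35 CPM in controls, 13.0, 12.4 and 8.36 CPM in Fzd3 mutants and 4.64, 3.94 and 3.10 CPM in Celsr3 mutants. Every Fzd3 mutant lay above every other library. The difference from controls was 1.13 in Fzd3 mutants (interval 0.67 to 1.59, limma adjusted p = 0.00247), a 2.30-fold higher mean, and -0.28 in Celsr3 mutants (interval -0.74 to 0.18, adjusted p = 1.00), the second being -0.14 without Celsr3 mutant 4, -0.088 without control 3 and -0.45 without control 1. The antisense gene Egfros overlaps 15272 bp of the *Egfr* span, introns included, where the annotated exons of *Egfr* cover 11326 bp. Overlap of exons was not checked, so whether *Egfr* values hold reads of Egfros is not known.

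*Pdgfra* (XLOC_024559, chr5:75152292-75198215) was at 15.2, 11.8 and 19.0 CPM in controls, 32.5, 29.3 and 17.1 CPM in Fzd3 mutants and 19.3, 13.0 and 19.8 CPM in Celsr3 mutants. As with *Olig2*, Fzd3 mutants 1 and 2 lay above all other libraries and Fzd3 mutant 3 lay among the controls. The difference was 0.73 in Fzd3 mutants (interval 0.20 to 1.26, limma adjusted p = 0.0399, exact permutation p = 0.2). Its limma adjusted p missed the threshold without control 1 (0.0895), control 2 (0.142), Fzd3 mutant 1 (0.155) or Fzd3 mutant 2 (0.13), was 0.00446 without Fzd3 mutant 3, and ranged from 0.00446 to 0.155 over all alternatives. The opposite-strand genes Gm42802 and Gm42803 overlap 599 and 451 bp of *Pdgfra* by gene span, introns included. Overlap of exons was not checked, so whether *Pdgfra* values hold their reads is not known. In Celsr3 mutants the difference was 0.17 (interval -0.36 to 0.70, adjusted p = 1.00). Celsr3 mutant 4 had the lowest *Olig2* of the 9 libraries and the highest *Pdgfra* of the Celsr3 mutants. In Celsr3 mutant 4 the ratio of *Pdgfra* to *Olig2* CPM was 9.22, against 2.58 to 4.16 in the other 8 libraries, and the 12 fibroblast genes summed to 313 CPM, against 107 to 125 CPM. *Cdh11* had the highest mean of them over all libraries. Their part in the *Pdgfra* value of this library was not tested, and without this library the difference of *Pdgfra* from controls was 0.068. It was 0.0044 without control 2, 0.086 without Celsr3 mutant 1, 0.33 without control 3 and 0.36 without Celsr3 mutant 2.

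*Cspg4* (XLOC_033193, chr9:56865033-56899870), which encodes the NG2 proteoglycan, was at 5.09, 5.98 and 6.47 CPM in controls, 10.2, 7.49 and 6.53 CPM in Fzd3 mutants and 5.95, 5.26 and 5.51 CPM in Celsr3 mutants. All Fzd3 mutants lay above the controls, by little in the case of Fzd3 mutant 3. The differences from control were 0.42 in Fzd3 mutants (interval 0.09 to 0.75, limma adjusted p = 0.0561) and -0.06 in Celsr3 mutants (interval -0.39 to 0.27), and the second was 0.012 without control 3. The first passed without Fzd3 mutant 3 (0.55, limma adjusted p = 0.0187) and with each library scaled to the same sum (0.43, adjusted p = 0.0496), and was 0.25 without Fzd3 mutant 1 (adjusted p = 0.208). Its adjusted p ranged from 0.0187 to 0.208 over all alternatives. *Cspg4* shares chromosome 9 with *Celsr3*, 51.9 Mb away, and 0 of the 7 members lie on the chromosome of *Fzd3*. Pericyte and smooth muscle genes, which mark other *Cspg4* cells, summed to 160, 158 and 142 CPM in Fzd3 mutants and to 134, 143 and 141 CPM in controls, led by *Rgs5*. Of those 12 genes, which include *Cspg4*, 2 were higher in Fzd3 mutants (4 without Fzd3 mutant 3, 1 without control 2). The number lower was 0 (1 without control 1 or Fzd3 mutant 1), and 6 had an unadjusted p under 0.05. Over all 14670 genes 15.0% were higher, 14.8% lower and 6067 had an unadjusted p under 0.05. *Acta2*, *Tagln* and *Myh11* were not analysed here, and the part of pericytes in the *Cspg4* values was not tested.

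**Figure D2:**
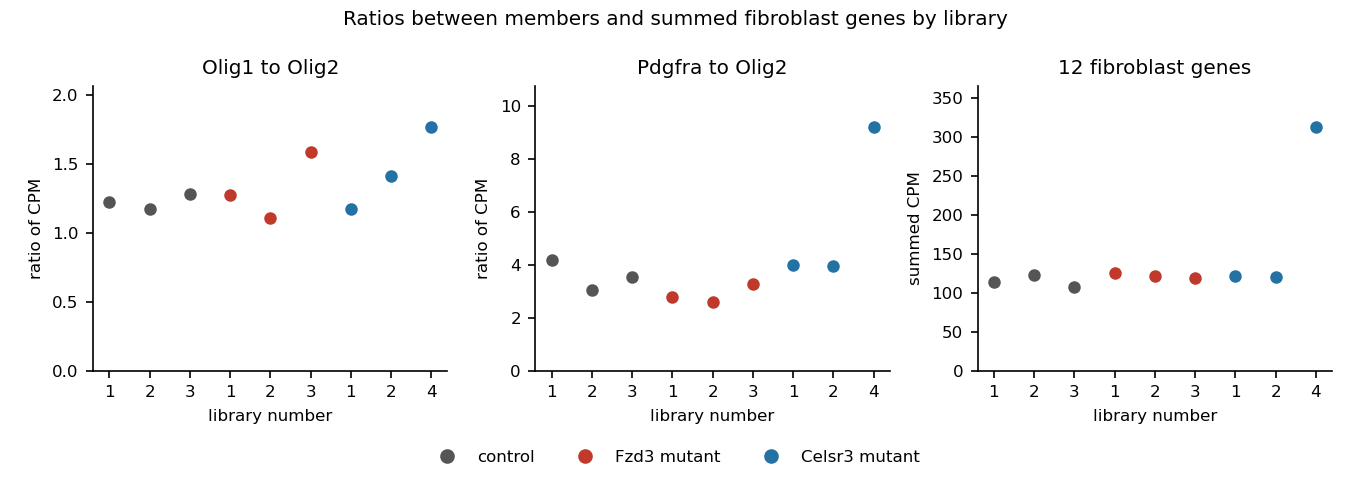
Ratio of *Olig1* to *Olig2* CPM, ratio of *Pdgfra* to *Olig2* CPM and summed CPM of 12 fibroblast genes, with a point per library. Celsr3 mutant 4 stands apart in the last 2 panels, at a ratio of 9.22 and a sum of 313 CPM.

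As a group, 4 of 7 members were higher in Fzd3 mutants than in controls and 0 lower. With 1 library left out, 2 to 5 members passed, 2 of them without control 1, control 2, Fzd3 mutant 1 or Fzd3 mutant 2. Over all 14670 genes 29.8% passed the test, 15.0% higher and 14.8% lower. The median log2 difference was 0.73 over the members and -0.000559 over all genes, and 6 of the 7 members had a value above 0. For 3 members (*Olig1*, *Egfr* and *Cspg4*) all Fzd3 mutants lay above all controls, which was so for 21.6% of all genes. Among all genes, 98.6% had a smaller log2 difference than *Egfr*, 98.5% than *Olig1*, 98.1% than *Olig2* and 96.4% than *Pdgfra*, on the signed scale.

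In Celsr3 mutants 0 of 7 members passed against controls with limma, 0 had an unadjusted p under 0.05, and 0 passed with precision weights. With 1 library left out their differences ran from -0.28 to 0.037 for *Olig1*, from -0.58 to -0.078 for *Olig2*, from -0.39 to -0.14 for *Sox10* and from -0.19 to -0.058 for *Sox8*. For the receptors and surface proteins they ran from 0.0044 to 0.36 for *Pdgfra*, from -0.45 to -0.088 for *Egfr* and from -0.15 to 0.012 for *Cspg4*. The background was low, with 45 genes (0.307%) passing. Of all 14670 genes, 800 had an unadjusted p under 0.05. The median difference was -0.15 over the members and -0.00222 over all genes, and 1 of the 7 members was above 0. Both mutants were compared with the same 3 controls, so their differences from control are not independent of each other.

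The difference between both mutants does not use the control values, although the spread of the controls enters its p values through the shared model. *Egfr* was higher in Fzd3 than in Celsr3 mutants by 1.41 (limma adjusted p = 0.000788), *Olig2* by 1.32 (0.0079), *Olig1* by 1.23 (0.00203) and *Cspg4* by 0.48 (0.0337), and for these 4 genes every Fzd3 mutant lay above every Celsr3 mutant. Of the 7 members, 4 passed. Over all genes 29.6% passed, 15.3% were higher in Fzd3 mutants, and 22.3% had all Fzd3 above all Celsr3 mutants. Of 12 ventral and GABA lineage genes, 5 were higher in Fzd3 than in Celsr3 mutants and 0 lower. Of 14 radial glia genes, 3 were higher and 10 lower, and the part of these cells in the values of the members was not tested. *Pdgfra* differed by 0.56 (adjusted p = 0.103), *Sox10* by 0.47 (0.165) and *Sox8* by -0.03 (0.861), the last being 0.078 without Fzd3 mutant 3 and 0.016 without Celsr3 mutant 4. The median difference was 0.56 over the members and -0.00471 over all genes. Without Celsr3 mutant 4, *Egfr*, *Olig1* and *Olig2* differed by 1.27, 1.10 and 1.06 and passed, and *Cspg4* differed by 0.47 (adjusted p = 0.0809) and did not. *Cspg4* also missed the threshold without Fzd3 mutant 1 (0.123), Fzd3 mutant 2 (0.0609) or Celsr3 mutant 2 (0.0989), with a range of 0.0117 to 0.123 over all alternatives. Its difference was 0.31 without Fzd3 mutant 1. Without Fzd3 mutant 3, *Pdgfra* (0.84, adjusted p = 0.0114) and *Sox10* (0.74, adjusted p = 0.0193) passed as well. With 1 library left out, the difference ran from 0.37 to 0.84 for *Pdgfra* and from 0.30 to 0.74 for *Sox10*.

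**Figure D3:**
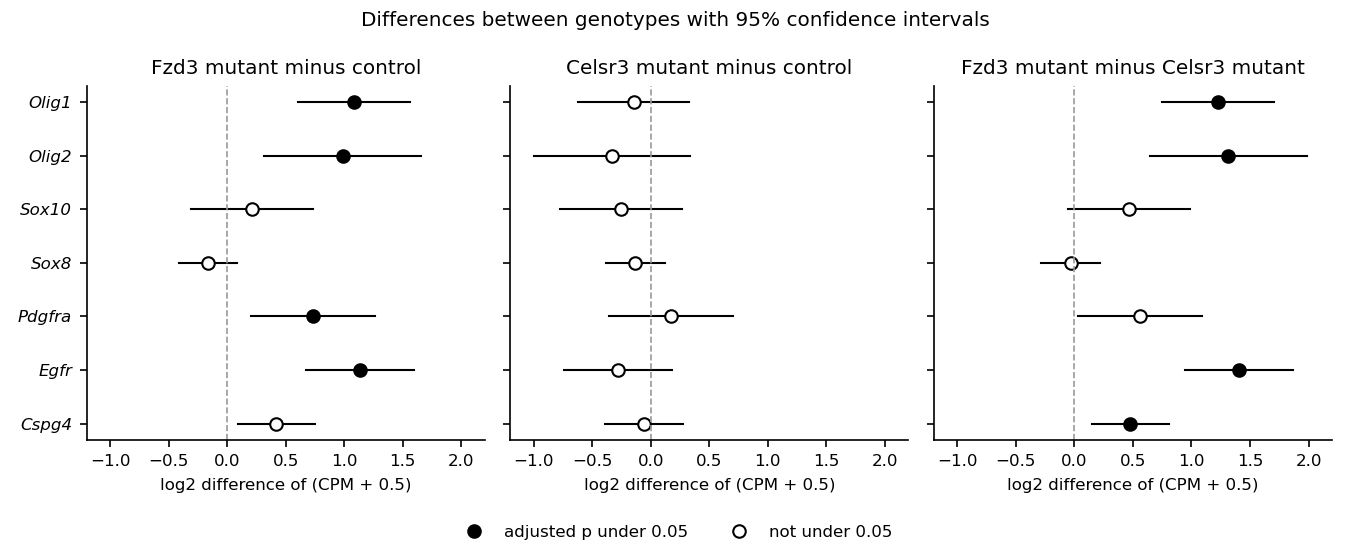
Log2 difference of (CPM + 0.5) for each member in 3 comparisons, with points at the estimate, bars for the 95% confidence interval and filled points for a limma adjusted p under 0.05. *Olig1*, *Olig2*, *Pdgfra* and *Egfr* are filled in the first panel, none in the second, and *Olig1*, *Olig2*, *Egfr* and *Cspg4* in the third.

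Levels of different genes were compared per kb of annotated exon. In controls *Sox8* led, at 3.30 ± 0.332 CPM per kb (SD, n = 3), followed by *Olig1* (2.45 ± 0.625), *Olig2* (1.70 ± 0.362), *Pdgfra* (1.53 ± 0.357), *Cspg4* (0.490 ± 0.0588), *Egfr* (0.431 ± 0.120) and *Sox10* (0.409 ± 0.0882). The members split into an upper 4 and a lower 3, and only the step from *Pdgfra* to *Cspg4* exceeded the spread of the libraries, since all other neighbours overlapped. In Fzd3 mutants *Olig1* (5.49 ± 1.53 CPM per kb) and *Olig2* (3.72 ± 1.43) stood before *Sox8* (2.94 ± 0.391) and *Pdgfra* (2.63 ± 0.810), and *Egfr* (0.992 ± 0.222) before *Cspg4* (0.678 ± 0.161) and *Sox10* (0.517 ± 0.201). Here too neighbours overlapped apart from *Pdgfra* and *Egfr*. In Celsr3 mutants the order was *Sox8* (2.99 ± 0.206), *Olig1* (2.17 ± 0.431), *Pdgfra* (1.73 ± 0.380), *Olig2* (1.35 ± 0.531), *Cspg4* (0.467 ± 0.0290), *Egfr* (0.344 ± 0.0680) and *Sox10* (0.317 ± 0.0752), with no overlap between *Sox8* and *Olig1*, *Olig2* and *Cspg4*, or *Cspg4* and *Egfr*.

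The profiles of the members over the 9 libraries were compared as the root mean square difference of log2(CPM + 0.5), each gene centred on its own mean, among the 14381 genes whose mean reached 1 CPM. The genes closest to *Olig2* were *Syt13* (0.15), *Nr3c2* (0.17), *Olig1* (0.18), *Egfr* (0.20) and *Cntnap5a* (0.22). *Olig1* and *Egfr* thus ranked 3 and 4 of all genes in likeness to *Olig2*, while *Pdgfra* ranked 435, *Sox10* 452, *Cspg4* 557 and *Sox8* 8177. The profile of *Pdgfra* was closest to *Gpr153* (0.12), *Serpine2* (0.16) and *Optn* (0.16). The nearest member was *Cspg4* at rank 212, followed by *Sox10* (474), *Olig1* (1439), *Egfr* (5625), *Olig2* (6034) and *Sox8* (8673). By this measure *Olig1* and *Egfr* lay close to *Olig2*, and *Sox8* ranked last of the members for both *Olig2* and *Pdgfra*. The distances from *Pdgfra* were 0.48 for *Sox8*, 0.45 for *Olig2* and 0.44 for *Egfr*.

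Other genes known from precursors moved in both directions in Fzd3 mutants. Of 38 such genes, 8 were higher than in controls, 13 lower and 17 did not pass, and the median difference was -0.05. Among the higher genes, *Sulf2*, a heparan sulfate sulfatase, was at 20.4, 17.8 and 34.2 CPM in controls and at 67.6, 56.9 and 43.3 CPM in Fzd3 mutants, with no overlap (1.23, limma adjusted p = 0.00482). The protease inhibitor *Serpine2* was higher by 0.70 (adjusted p = 0.00688), the matrix protein tenascin-R (*Tnr*) by 0.62 (0.00115) and the transcriptional inhibitor *Id2* by 0.26 (0.00196), each without overlap with controls. With ordinary variances in place of moderated ones, 3 genes of the list were higher, and *Sulf2* (adjusted p = 0.0522) and *Serpine2* (0.0515) did not, with ranges over all alternatives of 0.00117 to 0.0522 and 0.00119 to 0.0515. Among the lower genes were transcription factors that neural progenitors also express. *Sox3* fell by 0.83 on the log2 scale (limma adjusted p = 0.00373), *Id4* by 0.79 (8.4e-05), the Notch target *Hes5* by 0.66 (0.00227) and *Sox5* by 0.52 (0.0044). *Id4* was at 46.3, 46.0 and 43.5 CPM in controls and at 25.1, 26.0 and 27.1 CPM in Fzd3 mutants, so that Fzd3 mutant 3 did not stand apart for this gene as it did for the members. These 38 genes summed to 4483, 4867 and 4167 CPM in controls and 4232, 4078 and 4189 CPM in Fzd3 mutants, and *Sox4* was the most abundant of them. In Celsr3 mutants 0 of the 38 passed with limma, and 5 had an unadjusted p under 0.05.

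Of 19 ligands and partners of the PDGF and EGF receptors, 6 were higher in Fzd3 mutants than in controls, 1 was lower and 12 did not pass, with a median of 0.23, where 15.0% of all genes were higher and 14.8% lower. They summed to 507, 473 and 474 CPM in Fzd3 mutants and 442, 445 and 447 CPM in controls, led by *Grb2*. Without control 2, 3 were higher and 0 lower, and without Fzd3 mutant 1, 2 were higher and 1 lower. *Pdgfa*, the main ligand of the *Pdgfra* product, was at 10.5, 8.11 and 11.6 CPM in controls and 14.8, 17.0 and 13.9 CPM in Fzd3 mutants (0.58, limma adjusted p = 0.0267). All Fzd3 mutants lay above all controls for *Pdgfa*, but the adjusted p missed the threshold without control 1 (0.053), control 2 (0.102), Fzd3 mutant 1 (0.0656) or Fzd3 mutant 2 (0.0981), with a range of 0.00909 to 0.106 over all alternatives. *Pdgfc*, another ligand of that receptor, was at 14.1, 10.6 and 12.9 CPM in controls and 20.6, 18.4 and 15.0 CPM in Fzd3 mutants, without overlap (0.50, limma adjusted p = 0.0307). Its adjusted p missed the threshold without control 2 (0.114), Fzd3 mutant 1 (0.122) or Fzd3 mutant 2 (0.0877), with a range of 0.0142 to 0.122 over all alternatives. The EGF receptor ligand *Hbegf* was at 6.82, 6.50 and 7.88 CPM in controls and 11.5, 10.2 and 7.87 CPM in Fzd3 mutants, where Fzd3 mutant 3 lay among the controls (0.44, limma adjusted p = 0.0313). Its adjusted p missed the threshold without control 1 (0.087), control 2 (0.102), Fzd3 mutant 1 (0.127) or Fzd3 mutant 2 (0.097), with a range of 0.00535 to 0.127 over all alternatives. So the calls of all 3 direct ligands named were lost without single libraries. The neuregulin *Nrg2* was higher by 0.65 (adjusted p = 0.0104) and *Lrig3*, of a family of receptor regulators, by 0.64 (0.00646). The neuregulin *Nrg3* was higher by 0.34 (limma adjusted p = 0.0121), and its adjusted p was 0.0539 without Fzd3 mutant 1 (range over all alternatives 0.00626 to 0.0564). The neuregulin coreceptor *Erbb2* fell by 0.57 on the log2 scale (limma adjusted p = 0.0122), and its adjusted p was 0.0513 without control 2 and 0.0521 without Fzd3 mutant 2 (range over all alternatives 0.009 to 0.0568). The count of lower genes was 0 without either of these libraries and 2 without control 3, Fzd3 mutant 3 or Celsr3 mutant 4. In Celsr3 mutants 0 of the 19 passed with limma, and 1 had an unadjusted p under 0.05.

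**Figure D4:**
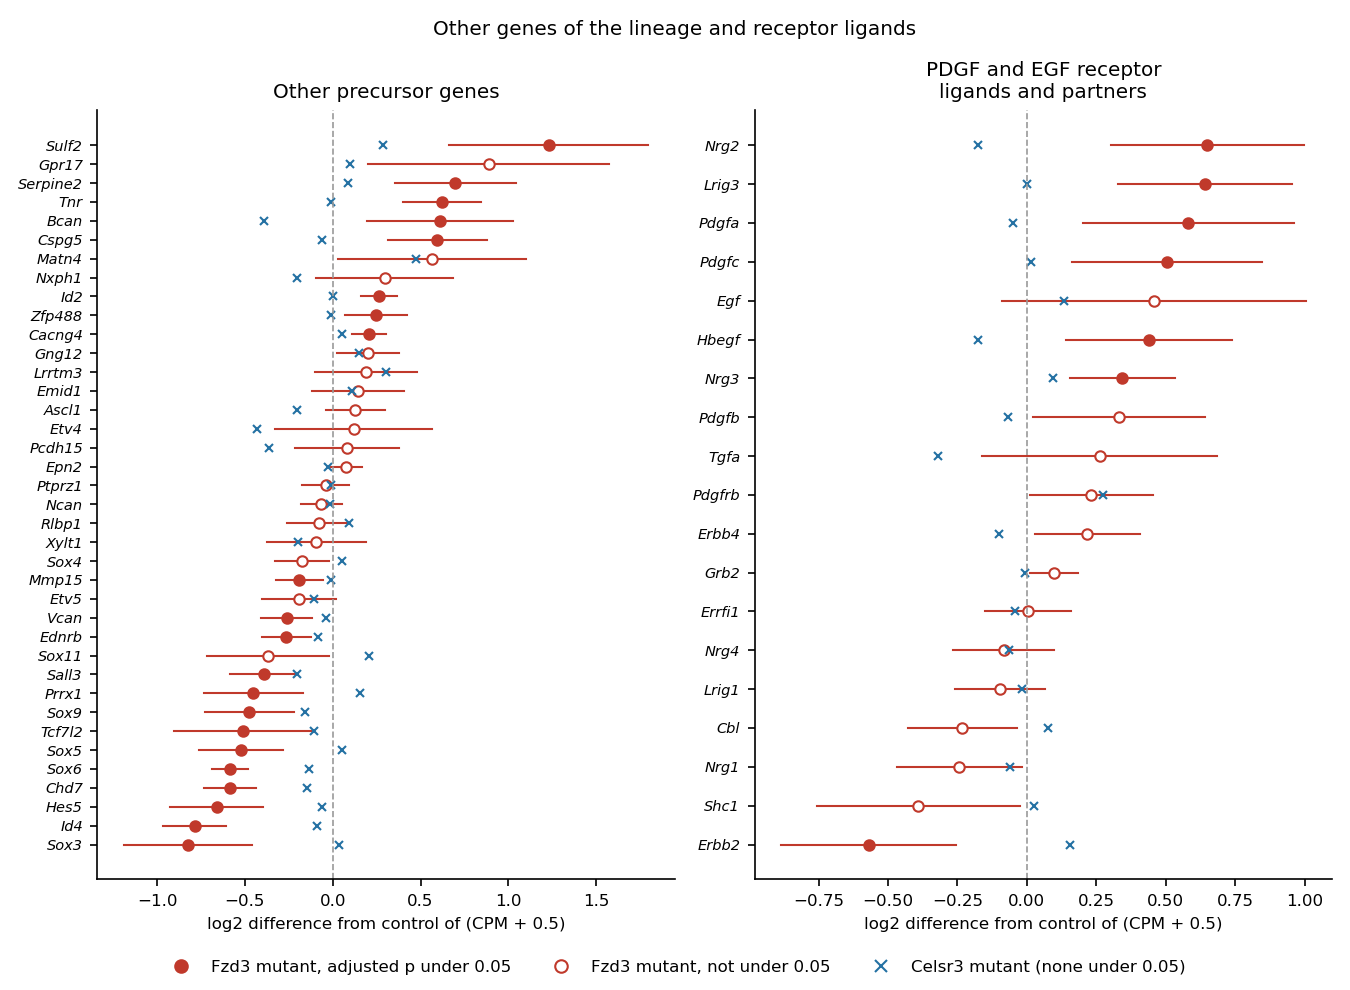
Log2 difference from control of (CPM + 0.5) for 38 other precursor genes and for 19 ligands and partners of the PDGF and EGF receptors, sorted by the value in Fzd3 mutants. Circles and bars give the Fzd3 mutant estimate and its 95% confidence interval, filled where the limma adjusted p is under 0.05, and crosses give the Celsr3 mutant estimate. 8 precursor genes and 6 ligands or partners are filled above 0, and 13 and 1 below.

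Of 12 genes of maturing oligodendrocytes, 2 were higher in Fzd3 mutants than in controls (*Mbp* by 0.24, limma adjusted p = 0.045, and *Mog* by 0.40, 0.0416). *Mbp* was at 13.0, 13.6 and 12.1 CPM in controls and 16.0, 15.8 and 14.3 CPM in Fzd3 mutants. Both calls depended on single libraries. The limma adjusted p of *Mbp* missed the threshold without each control (0.0895, 0.0561 and 0.125), Fzd3 mutant 1 (0.137) or 2 (0.129), and Celsr3 mutant 2 or 4 (0.0551 for both). That of *Mog* missed it without each control (0.0798, 0.105 and 0.0784), Fzd3 mutant 2 (0.153) or 3 (0.12), and each Celsr3 mutant (0.053, 0.0563 and 0.0512). Over all alternatives the adjusted p ranged from 0.032 to 0.137 and from 0.00511 to 0.153. Without Fzd3 mutant 3, 4 genes of the list were higher. In Celsr3 mutants 0 of the 12 passed with limma, and 1 had an unadjusted p under 0.05. The defining myelin genes *Mag*, *Mobp*, *Cldn11*, *Opalin* and *Myrf* were not analysed here. The list summed to 423, 472 and 439 CPM in controls and 423, 395 and 433 CPM in Fzd3 mutants, mostly *Nfasc*, which neurons also express.

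Markers of other cells in the tissue also differed with genotype, and their part in the values of the members was not tested. Between Fzd3 mutants and controls, 15.0% of all genes were higher and 14.8% lower, and 6067 of 14670 had an unadjusted p under 0.05. Of 9 microglia genes, 4 were higher in Fzd3 mutants (2 without Fzd3 mutant 1) and 0 lower, with 6 at an unadjusted p under 0.05, and they summed to 68.1, 63.6 and 47.7 CPM in Fzd3 mutants, 37.8, 44.9 and 42.5 CPM in controls and 42.6, 46.0 and 54.7 CPM in Celsr3 mutants, led by *Csf1r*. The members together summed to 94.1, 84.7 and 54.2 CPM in Fzd3 mutants against 43.1, 43.6 and 54.8 CPM in controls and 50.3, 40.1 and 45.3 CPM in Celsr3 mutants. Endothelial and blood genes, led by *Hba-a1*, summed to 879, 932 and 652 CPM in Fzd3 mutants and 652, 696 and 746 CPM in controls, with 3 of 9 higher, among them *Flt1* (0.85, limma adjusted p = 0.00054), and 1 lower. Fzd3 mutant 3 was the lowest of its genotype for 8 of 9 microglia genes and 7 of 9 endothelial and blood genes, as for the members. The 1 lower call was lost without control 1, control 2 or any Fzd3 mutant.

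Genes of ventral progenitors and the GABA lineage, the first source of cortical precursors, mostly did not pass the test against controls. In Fzd3 mutants 1 of 12 was higher (*Maf*, 0.50, limma adjusted p = 0.00335) and 1 lower, and the sum was 382, 358 and 305 CPM against 318, 322 and 354 CPM in controls, led by *Dlx1*. Fzd3 mutant 3 was the lowest of its genotype for 10 of these 12 genes. Without it 2 were higher and 0 lower, and the lower call was also lost without control 2, control 3, Fzd3 mutant 1, Fzd3 mutant 2, Celsr3 mutant 1 or Celsr3 mutant 2. The ventral markers *Nkx2-1*, *Gsx2* and *Lhx8* were not analysed here. Radial glia genes were lower in Fzd3 mutants for 10 of 14 and higher for 1, with *Mki67* at -0.81 (adjusted p = 0.0002) and *Vim* at -0.62 (8.1e-05). They summed to 1471, 1534 and 1432 CPM in Fzd3 mutants against 1815, 1937 and 1869 CPM in controls, led by *Fabp7*, and here Fzd3 mutant 3 lay close to the other Fzd3 mutants. The 1 higher call was lost without control 1 or Fzd3 mutant 1. Of 12 astrocyte lineage genes 4 were higher (2 without control 1, control 2, Fzd3 mutant 1 or Fzd3 mutant 2) and 4 lower, and the sum was 1505, 1496 and 1698 CPM against 1920, 2222 and 1684 CPM, mostly *Nfib*, with *Gfap* and *Aqp4* not analysed here.

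Of 13 genes of excitatory neurons, the main cells of this tissue, 8 were lower in Fzd3 mutants and 1 higher (2 without Fzd3 mutant 3). They summed to 3430, 3441 and 3468 CPM against 3585, 3776 and 3395 CPM in controls. Of 5 Schwann and neural crest genes, led by *Ngfr*, 2 were lower (1 without control 1, 0 without Fzd3 mutant 1 or 2) and 1 higher (0 without control 1, control 2, Fzd3 mutant 1 or 2). They summed to 26.5, 30.2 and 33.3 CPM in Fzd3 mutants against 33.3, 35.5 and 37.3 CPM in controls, and *Foxd3* was not analysed here. An unadjusted p under 0.05 was found for 6067 of all 14670 genes and for 3 of the 12 fibroblast genes. Of these 12 genes 1 was higher in Fzd3 mutants and 0 lower. Without Celsr3 mutant 4, 3 were higher and 1 lower, and the sum was 125, 121 and 119 CPM against 113, 123 and 107 CPM. *Lum*, *Foxc2* and *Twist1* were not analysed here. In Celsr3 mutants 1, 2 and 4 ventral and GABA lineage genes summed to 320, 279 and 263 CPM, and 0 of the 12 had a difference from control above 0. Pericyte genes summed to 147, 141 and 179 CPM, endothelial and blood genes to 850, 595 and 929.5 CPM and fibroblast genes to 121, 120 and 313 CPM. The sums were 1685, 1743 and 1795 CPM for radial glia, 1757, 1977 and 1883 CPM for the astrocyte lineage, 3746, 3805 and 3717 CPM for excitatory neurons and 31.8, 29.6 and 35.0 CPM for Schwann and neural crest genes. Other precursor genes summed to 4554, 4591 and 4489 CPM, myelin genes to 449, 448 and 427 CPM and ligands and partners to 457, 446 and 429.5 CPM. Celsr3 mutant 4 thus stood apart most in fibroblast genes. In Celsr3 mutants 0 genes of the lists of other cell types passed against controls with limma, and between 1 and 4 in each had an unadjusted p under 0.05.

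**Figure D5:**
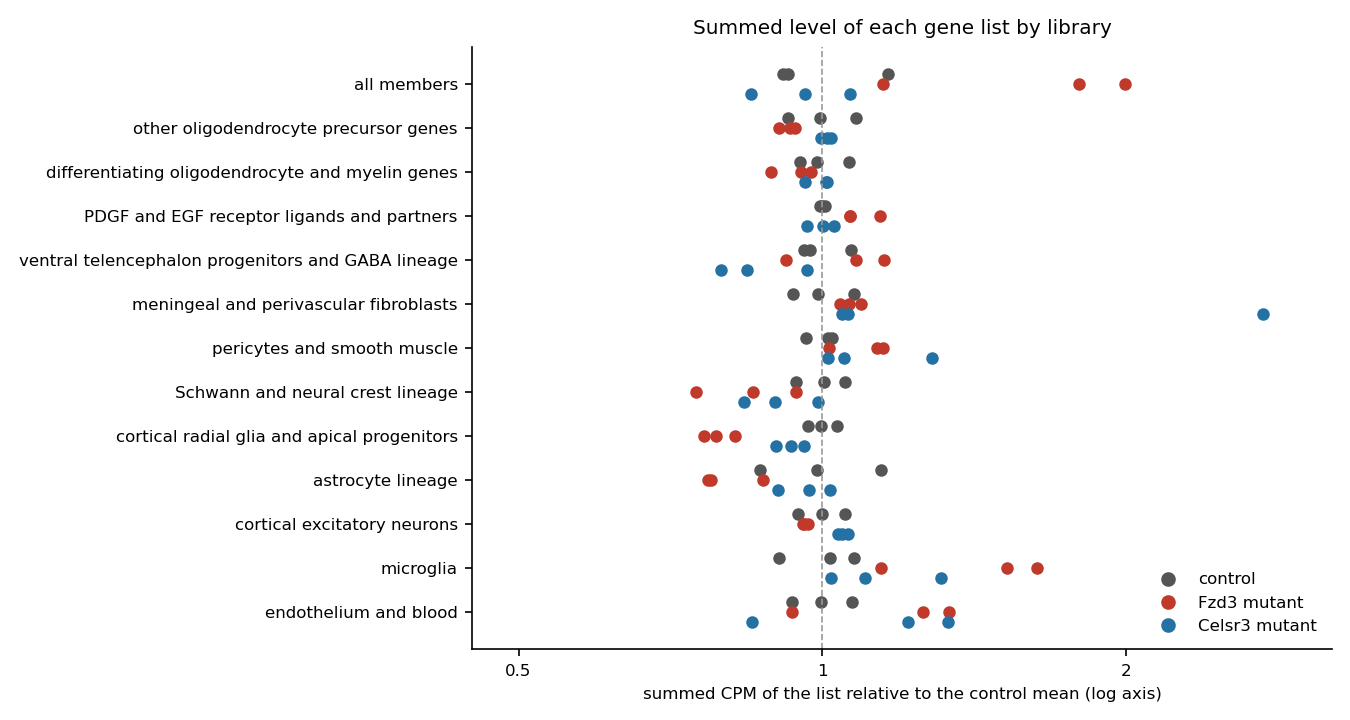
Summed CPM of each gene list in each library relative to its control mean (horizontal log axis, dashed line at 1), with a point per library. The 7 members reach 1.99 and 1.80 in Fzd3 mutants 1 and 2 and 1.15 in Fzd3 mutant 3, and fibroblast genes reach 2.74 in Celsr3 mutant 4.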

How the data were processed

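RNA-seq of 9 cortex libraries was used, 3 per genotype, grouped by the sample labels. The deposited unit was CPM, supplied by the authors from sequencing and analysis done at a company. The submitters' processing notes name FastQC, TopHat, TopHat2, Bowtie, Cufflinks 2.1.1 and edgeR 2.12 and the builds GRCm38 and GRCh37, without their roles. How reads were counted, and whether strand was used, is not given in the sources used here. The number of unused sample columns was 0. Values were multiples of the library's step for 100% of genes (tolerance 0.05 reads), and depths were the sums of these multiples over the genes listed. Intervals and depths describe these libraries only.

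All libraries entered 1 linear model of log2(CPM + 0.5) without a replicate block (limma 3.58.1, R 4.3.3; eBayes with trend), after a filter at a mean of 0.5 CPM that removed 0 genes, with two-sided tests and Benjamini-Hochberg adjustment. The fit was tested on simulated data. Exact permutation tests, ratios, profile distances and figures were made with Python 3.11.15 (numpy 2.4.6; pandas 2.3.3; scipy 1.17.1; matplotlib 3.10.9). Positions and exon lengths came from GENCODE M21 (GRCm38).

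Genes were named by rule. The rule took all members, the mutated genes, up to 6 genes of highest mean CPM from each list, up to 6 of largest change past the threshold from the lists of other precursor genes, myelin genes and ligands, and the 3 other genes closest in profile to *Olig2* and to *Pdgfra*. Genes not analysed here and antisense genes were named outside it, after the values were seen. Members and lists were chosen with earlier results of these data known. Alternatives changed the pseudocount, filter, scaling, block, variances and libraries, and precision weights (voom) were added after seeing the data.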

Additional observations from a re-analysis of the deposited data

Results flagged for a closer look

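4 members differed between the mutants in a direct test. The log2 difference, Fzd3 mutant minus Celsr3 mutant, was 1.41 for *Egfr*, 1.32 for *Olig2*, 1.23 for *Olig1* and 0.48 for *Cspg4* (limma adjusted p = 0.000788, 0.0079, 0.00203 and 0.0337). Both effects are measured against the same controls, which drop out of this difference.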

How the results depend on the processing

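Each member was refitted under up to 19 alternatives in 3 comparisons, 396 values in all. Of these 370 kept their direction and their side of the threshold, 17 no longer passed, 4 passed where they had not, and 5 changed sign. The changes of sign were *Olig1* and *Cspg4* in Celsr3 mutants without control 3, and *Sox8* between the mutants with the replicate number as a block (0.10), without Fzd3 mutant 3 and without Celsr3 mutant 4. With 1 library left out these differences ran from -0.28 to 0.037, from -0.15 to 0.012 and from -0.094 to 0.078. In Fzd3 mutants against controls, *Olig1* and *Egfr* passed in all 19. Ordinary variances in place of moderated ones lowered the members passing from 4 to 2 in Fzd3 mutants against controls and from 4 to 2 between the mutants, where *Olig2* kept its differences of 0.98 and 1.32 with adjusted p = 0.125 and 0.062. Adjusted p for *Olig2* over all alternatives ran from 0.00326 to 0.125 and from 0.00114 to 0.062. With 1 library left out, the members passing ranged from 2 to 5 and from 3 to 6, and the difference of *Olig2* from 0.80 to 1.34 against controls and from 1.06 to 1.67 between the mutants. All genes passing between Celsr3 mutants and controls numbered 45, and 29 with the block and 24 with ordinary variances. Between the mutants they numbered 4346, and 2101 with the block. The cause of these changes was not tested. Deviations of same-numbered libraries from their genotype means gave r from -0.199 to 0.192 over 7 pairs, and those of differently numbered libraries -0.163 to 0.188. These values gave no sign of pairing by number, but correlations over all genes with 3 libraries per genotype cannot exclude it. With the block *Olig2* and *Pdgfra* still passed in Fzd3 mutants, and *Cspg4* between the mutants (adjusted p = 0.123) and *Celsr3* itself in Celsr3 mutants (0.0699) did not. *Celsr3* also missed with ordinary variances (0.177). By CPM without length, 1 of 7 members kept its place in the order in controls and Celsr3 mutants and 2 in Fzd3 mutants. Of 44 other named genes that passed in Fzd3 mutants, 24 passed in every alternative and 0 changed sign. Count models on recovered reads, planned as alternatives, were not run because too few low values were present to establish whole reads by the check used. The read numbers, depths and precision weights given here rest on taking each step as 1 read. *Sox10* has no value under a filter at a mean of 2 CPM.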
